A study of Schizosaccharomyces pombe with 10 samples.

Results

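Fission yeast treated with the topoisomerase I poison camptothecin was compared directly with fission yeast treated with the alkylating agent methyl methanesulfonate (MMS). The comparison uses 4 of the series' 10 RNA-seq libraries, 2 per agent, chosen by their treatment labels, and every one of the 6661 features of the deposited count table, of which 5734 had enough reads to be tested. All libraries came from Schizosaccharomyces pombe strain PT286, described as wild type, whose mating type is not given in the labels. Cultures were grown at 30 °C in YES, a rich medium, for 16 h, and after a change of medium they were kept for 8 h with 20 µM camptothecin or with 0.02 % MMS. The 2 untreated libraries of the series, used here to show where each level started, came from the same strain, but the labels do not say whether those cells were kept for the same 8 h. The hydroxyurea (10 mM) and phleomycin (5 µg/mL) libraries of the same series enter the fit and are quoted for a few genes. Each agent was used at a single dose and a single time, so differences of agent, dose and degree of damage cannot be told apart. Library totals ran from 37301356 to 48598533 counts. Whether libraries of the same treatment stem from separate cultures is not stated in the labels, and the p-values then reflect library-to-library spread alone, which could be technical.

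Camptothecin holds topoisomerase I on DNA after it has cut 1 strand, and a replication fork that reaches the trapped enzyme can be turned into a broken end. MMS methylates the bases themselves. The methylated bases are removed by base excision repair, block DNA polymerases, and stall forks. In fission yeast the ATR-like kinase Rad3 answers stalled and broken forks through the kinases Cds1 and Chk1, the MBF factor drives the genes of the G1/S transition, and the factors Pap1 and Atf1 drive oxidant and general stress genes. Iron uptake is under a separate pair of regulators, the GATA repressor Fep1, which holds uptake genes down when iron is plentiful, and Php4, which turns down iron-using genes when it is scarce.

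At the depth of these libraries most features differed between the agents. With edgeR's quasi-likelihood test and Benjamini-Hochberg adjustment over the tested features, 4408 features (76.9 %) were called at an adjusted p of 0.05, and in 4402 of them both libraries of one agent lay above both of the other. Of the tested features 2217 (38.7 %) were called higher with camptothecin and 2191 (38.2 %) higher with MMS. This split follows the scaling: 50.3 % of the calls were higher with camptothecin, and 41.5 % where library totals alone set the scale. At least 2-fold differences were more often higher with MMS. In all, 278 features (4.85 %) were called and at least 2-fold higher with camptothecin, against 493 (8.6 %) with MMS. The excess lay mainly in non-coding features, with 74 and 245, and in features with few reads. Protein-coding features gave 204 and 248. Of all calls at least 2-fold, 36.1 % were higher with camptothecin, and the share was 27.7 % with library totals alone and 46.9 % with quantile normalization and limma. Small differences were called so readily that a list's calls mean little near the 38.7 % and 38.2 % of all features. Lists of genes are therefore described here mainly by how many members passed 2-fold and by their median log2 ratio of camptothecin over MMS. That median was -0.005 over all tested features. A negative ratio means a higher level with MMS. The genes named are mainly the 10 protein-coding and 4 non-coding features with the largest ratios at each end, among those with a mean of at least 10 CPM (counts scaled to a common library size) in the higher group and neither a large overlap nor a near-identical copy, together with, for each list, its members of smallest adjusted p, and a set of 17 damage, stress and metal genes. A further 56 features, as well as sib1, sib2, ppb1, cnb1, gpd1, pyp1 and sty1, were chosen after their values were seen.

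**Figure D1:**
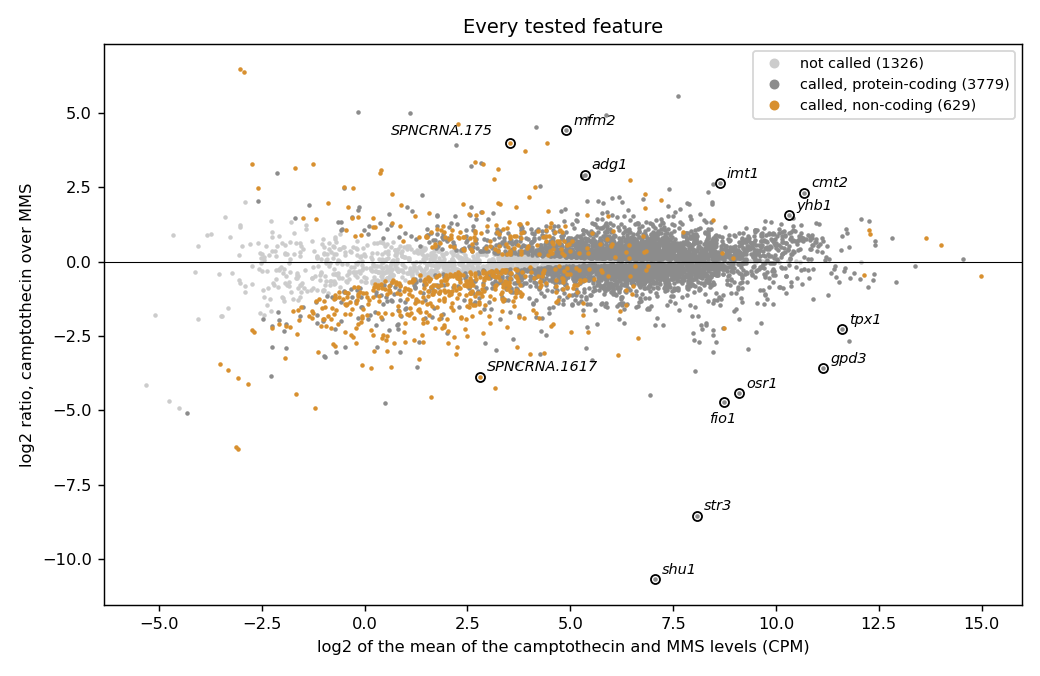
Log2 ratio of camptothecin over MMS (vertical axis) against the log2 of the mean level of both groups in CPM (horizontal axis), 1 point per tested feature, coloured by call and kind. The iron genes shu1 and str3 have the lowest ratios of all tested features (-10.69 and -8.55), and the non-coding features (orange) spread mainly below 0.

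The largest differences on the MMS side were in iron acquisition. Of the 14 iron uptake and iron regulator genes, 13 were higher with MMS, 9 of them at least 2-fold, and 1 was higher with camptothecin. The list's median log2 ratio was -1.94. The cell-surface haem acquisition gene shu1 had 9 and 4 reads in the camptothecin libraries and 10250 and 10961 in the MMS libraries, which is 0.195 and 0.111 CPM against 270.4 and 262 CPM. Untreated cells held 0.104 and 0.186 CPM of shu1, and their difference from camptothecin was not called (adjusted p = 0.89, edgeR). For shu1 the log2 ratio was -10.69 ± 0.12 (SE; edgeR, adjusted p = 7.45e-63), a value whose camptothecin end rests on those few reads. Its protein-coding neighbour, str3, encodes a transporter annotated for siderophore-bound iron. It was at 1.47 and 1.36 CPM with camptothecin, 11.4 and 12.5 CPM in untreated cells and 537 and 535 CPM with MMS. The untreated level of str3 thus lay between both agents, with camptothecin at -3.06 and MMS at 5.49 from it on the log2 scale. For str3 the log2 ratio was -8.55 ± 0.06 (SE; edgeR, adjusted p = 6.19e-73).

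The reductive iron uptake system moved the same way. The ferroxidase gene fio1 was at 32.6 and 29.7 CPM with camptothecin and 813 and 824 CPM with MMS, from 76.4 and 76.4 CPM in untreated cells. For fio1 the log2 ratio was -4.71 ± 0.03 (SE; edgeR, adjusted p = 6.01e-74). The iron permease gene fip1, whose product works with Fio1, was at 10.6 and 10.4 CPM with camptothecin and 229 and 238 CPM with MMS, and the log2 ratio was -4.47 ± 0.06 (SE; edgeR, adjusted p = 8.29e-60). Further members, chosen after their values were seen, were the ferric reductase genes frp1 and frp2. For frp1 the libraries held 118 and 120.3 CPM with camptothecin and 592 and 589 CPM with MMS, and for frp2 9.82 and 9.71 against 74.4 and 71.6 CPM. The ferrichrome transporter gene str1 differed by another route. It was at 356 and 358 CPM in untreated cells, 68.9 and 73.5 CPM with camptothecin and 449 and 442 CPM with MMS, so that its log2 ratio of -2.65 came mostly from camptothecin, where it fell by 2.33, while it rose by 0.32 with MMS.

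The regulators and the storage side of iron handling differed less. The gene of the repressor Fep1, fep1, was 1 of the 13 higher with MMS. The level of php4, chosen after its values were seen, was 44.5 and 44.9 CPM with camptothecin and 121 and 120.2 CPM with MMS. The vacuolar ABC transporter gene abc3 was at 59.7 and 60.9 against 179 and 178 CPM. The 1 gene of the list higher with camptothecin was pcl1, chosen after its values were seen, which encodes the transporter that moves iron into the vacuole for storage. The libraries held 449 and 443 CPM of pcl1 with camptothecin, 169 and 167 CPM with MMS and 297 and 284 CPM in untreated cells, and the log2 ratio was 1.41 ± 0.02 (SE; edgeR, adjusted p = 1.31e-52). The ferrichrome synthesis genes sib1 and sib2 stood near each other in both treatments, with log2 ratios of -0.05 and -0.14. With the series' other agents, hydroxyurea and phleomycin, the mean level of str3 was 32.9 and 25.3 CPM and that of shu1 0.723 and 2.29 CPM, far below the MMS levels.

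**Figure D2:**
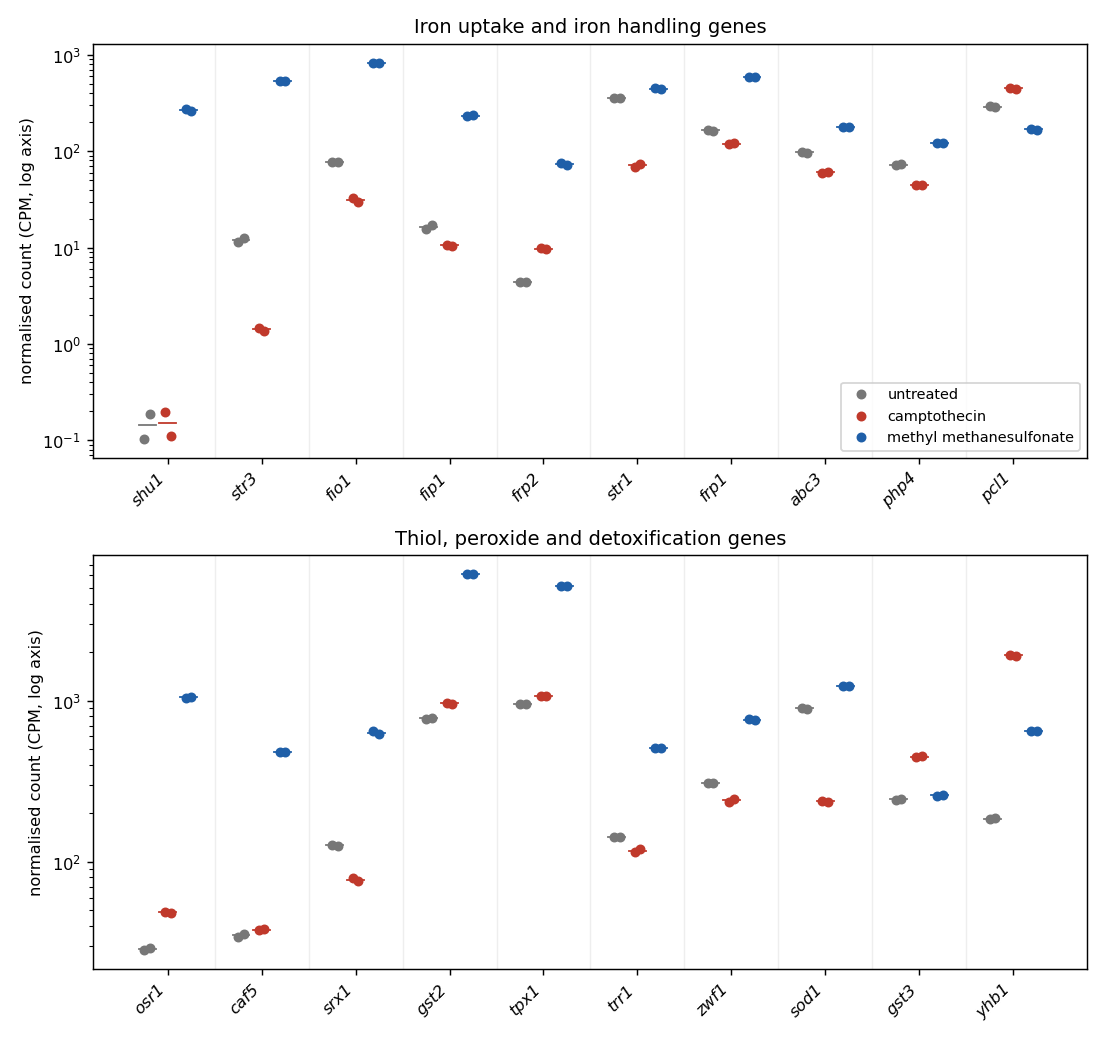
Levels of 10 iron genes (top) and 10 thiol, peroxide and detoxification genes (bottom) in CPM on a log axis, 1 point per library and a bar at the mean of 2 libraries. The untreated and camptothecin libraries of shu1 all lie below 1 CPM and the MMS libraries above 260, while pcl1, gst3 and yhb1 are highest with camptothecin.

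Thiol and peroxide defence genes were mostly higher with MMS. Of 20 tested genes of the Pap1 and redox list, 16 were higher with MMS, 8 of them at least 2-fold, and 3 were higher with camptothecin. The median log2 ratio was -0.67. The sulfiredoxin gene srx1, whose product repairs over-oxidised peroxiredoxin, was at 78.9 and 75.7 CPM with camptothecin and 645 and 624 CPM with MMS, and the log2 ratio was -3.04 ± 0.03 (SE; edgeR, adjusted p = 8.32e-66). Its substrate's gene, the peroxiredoxin tpx1, was at 1072 and 1066 CPM with camptothecin and 5148 and 5133 CPM with MMS. Untreated cells had 948 and 957 CPM of tpx1, close to camptothecin, and the log2 ratio was -2.27 ± 0.02 (SE; edgeR, adjusted p = 1.09e-73). The glutathione S-transferase gene gst2 rose from 771 and 781 CPM in untreated cells to 6096 and 6089 CPM with MMS, against 963 and 959 CPM with camptothecin, and the log2 ratio was -2.66 ± 0.02 (SE; edgeR, adjusted p = 1.79e-77). Further members, chosen after their values were seen, were the thioredoxin reductase gene trr1 (log2 ratio -2.12), the thioredoxin gene trx1 (-1.14) and zwf1 (-1.67), which encodes the first enzyme of the NADPH-producing pentose phosphate pathway. All 3 were below their untreated levels with camptothecin and above them with MMS.

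The copper and zinc superoxide dismutase gene sod1 differed mainly through camptothecin. It was at 907 and 894 CPM in untreated cells, 239.6 and 236 CPM with camptothecin and 1231 and 1232 CPM with MMS, and the log2 ratio was -2.37 ± 0.02 (SE; edgeR, adjusted p = 9.72e-71). The nitric oxide dioxygenase gene yhb1 went the other way. It was at 184 and 185.8 CPM in untreated cells, 1929 and 1902 CPM with camptothecin and 649 and 650.4 CPM with MMS, so both agents raised it and camptothecin more. For yhb1 the log2 ratio was 1.56 ± 0.02 (SE; edgeR, adjusted p = 2.18e-61). The glutathione S-transferase gene gst3, chosen after its values were seen, was also higher with camptothecin, by 0.80 on the log2 scale. Catalase, encoded by ctt1, was at 553 and 562 CPM with camptothecin and 1079.8 and 1087 CPM with MMS.

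Several detoxification and metabolic genes outside that list reached similar sizes. The dehydrogenase gene osr1 was at 49.1 and 48.0 CPM with camptothecin and 1046 and 1054 CPM with MMS, from 28.2 and 29.0 CPM untreated, and the log2 ratio was -4.43 ± 0.03 (SE; edgeR, adjusted p = 1.15e-77). The efflux transporter gene caf5, known from caffeine resistance, was at 37.6 and 38.4 CPM with camptothecin and 480.2 and 484 CPM with MMS, with untreated cells close to the camptothecin level (34.03 and 35.9 CPM). For caf5 the log2 ratio was -3.67 ± 0.04 (SE; edgeR, adjusted p = 8.32e-66). The ABC transporter gene abc1 was higher with MMS as well (log2 ratio -1.93), while mfs3, of the spermidine transporter family, was higher with camptothecin, at 295 and 293 CPM against 116 and 116 CPM. Over the 14 exporter genes 8 were higher with MMS and 3 with camptothecin, and the median was -0.08.

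Among metabolic genes gpd3, 1 of the glyceraldehyde 3-phosphate dehydrogenase genes, stood at 97.6 and 100.3 CPM in untreated cells, 345 and 356 CPM with camptothecin and 4107 and 4248 CPM with MMS. For gpd3 the log2 ratio was -3.58 ± 0.02 (SE; edgeR, adjusted p = 4.09e-78), though both agents raised it. The riboflavin synthesis gene rib4 (142 and 149.9 against 1125 and 1127 CPM) and the amino acid permease gene nrg1 (8.85 and 7.79 against 85.2 and 81.8 CPM) completed the 10 protein-coding genes that the rule names at the MMS end. The NAD-dependent glutamate dehydrogenase gene gdh2 (log2 ratio -2.22), the arginase gene car1 (-2.08) and the sterol desaturase gene erg32 (-2.26) were more than 4-fold higher with MMS. The nitrogen starvation and amino acid uptake list had 13 of 16 members higher with MMS and a median of -0.62. In the sulphur and methionine list 11 of 17 were higher with MMS and 5 with camptothecin. There sua1, which encodes the enzyme that activates sulphate, was at 235 and 244 CPM with camptothecin, 576 and 572 CPM with MMS and 509 and 513 CPM untreated, so the difference was a fall with camptothecin from a level that MMS left within a log2 change of 0.17.

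Genes of MBF itself and genes it drives at the start of S phase were mostly higher with MMS. Of 18 tested members of that joint list 15 were higher with MMS, 5 at least 2-fold, with a median of -0.85. The 1 member higher with camptothecin was res2, of MBF itself (0.57). The replication licensing gene cdc18 showed opposite directions against untreated cells. It was at 37.3 and 36.8 CPM untreated, 18.5 and 19.3 CPM with camptothecin and 79.9 and 83.2 CPM with MMS, and the log2 ratio was -2.11 ± 0.06 (SE; edgeR, adjusted p = 2.04e-41). The ribonucleotide reductase large subunit gene cdc22 was at 494 and 498 CPM untreated, 509 and 528 CPM with camptothecin, a log2 change of 0.06, and 1231 and 1261 CPM with MMS. For cdc22 the log2 ratio was -1.27 ± 0.02 (SE; edgeR, adjusted p = 3.54e-56). The small subunit gene suc22, which lies outside the MBF list, differed by only -0.25, at 889 and 902 CPM with camptothecin and 1072 and 1058 CPM with MMS.

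In the ribonucleotide reductase list 3 of 9 genes were higher with camptothecin and 4 with MMS, beside 38.7 % and 38.2 % of all tested features. Cdt2 is the substrate adaptor of the Cul4-Ddb1 ubiquitin ligase, which removes the ribonucleotide reductase inhibitor Spd1. The members of this ligase differed in opposite directions. The libraries held 60.8 and 59.99 CPM of cdt2 with camptothecin and 179 and 183 CPM with MMS, and the log2 ratio was -1.58 ± 0.04 (SE; edgeR, adjusted p = 5.94e-44). In contrast cul4 was at 203 and 202 CPM with camptothecin and 86.2 and 88.0 CPM with MMS, and the log2 ratio was 1.22 ± 0.03 (SE; edgeR, adjusted p = 4.93e-40). The ddb1 gene was higher with camptothecin by 0.70. The inhibitor gene spd1 itself was at 135 and 135 against 118 and 125 CPM, a difference of 0.15 that was no longer called when library totals alone set the scale. The wee1-like kinase gene mik1, an MBF target that delays mitosis, was at 38.2 and 38.2 CPM with camptothecin and 65.4 and 70.9 CPM with MMS. The cohesin gene rad21, chosen after its values were seen, had a log2 ratio of -1.15.

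Genes for the repair of each agent's own lesion were, as lists, called in both directions. Among 21 tested topoisomerase and trapped-topoisomerase repair genes, 8 were higher with camptothecin and 5 with MMS, none at least 2-fold. Of all tested features 38.7 % were higher with camptothecin and 38.2 % with MMS. The list's median was 0.03, or -0.06 where library totals alone set the scale. The gene of the camptothecin target, top1, was at 233 and 227 CPM untreated, 199.5 and 210.0 CPM with camptothecin and 161 and 153 CPM with MMS, and the log2 ratio was 0.38 ± 0.03 (SE; edgeR, adjusted p = 4.40e-18). The gene tdp1, whose product removes trapped topoisomerase from DNA ends, was at 14.6 and 14.7 CPM with camptothecin and 11.3 and 7.75 CPM with MMS. This gene is covered by other annotated features over more than 75 % of its span, so its reads are uncertain. Topoisomerase II, encoded by top2, was higher with MMS by a log2 ratio of -0.41, as was the Holliday junction nuclease gene mus81 (-0.87). The replication repair gene mus7 was higher with camptothecin (0.49).

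Among 15 tested base excision and alkylation repair genes 6 were higher with camptothecin and 3 with MMS, beside 38.7 % and 38.2 % of all tested features. Their median was 0.06, or -0.04 where library totals alone set the scale. The 3-methyladenine glycosylase gene mag1, whose product removes methylated bases, was at 36.7 and 37.3 CPM untreated, 33.2 and 29.1 CPM with camptothecin and 39.0 and 36.3 CPM with MMS, and its difference between MMS and untreated cells was not called (adjusted p = 0.74, edgeR). For mag1 the log2 ratio was -0.27 ± 0.07 (SE; edgeR, adjusted p = 2.17e-04). Its paralogue mag2 had 2 reads over the 10 libraries and was not tested. It lies fully under another annotated feature, and such protein-coding features had a median of 7 reads over the 10 libraries against 39551 for those no other feature covers. The alkyltransferase-like gene atl1, whose product binds alkylated guanine, was lower with MMS than with camptothecin. It was at 22.8 and 22.2 CPM untreated, 19.0 and 18.8 CPM with camptothecin and 8.68 and 9.54 CPM with MMS, and the log2 ratio was 1.05 ± 0.10 (SE; edgeR, adjusted p = 1.34e-14).

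Recombination, checkpoint and lesion bypass genes were called in both directions. In homologous recombination 7 of 16 tested genes were higher with MMS, none at least 2-fold, and 4 with camptothecin, 1 at least 2-fold. Their median was -0.01. Over all tested features 38.2 % were higher with MMS and 38.7 % with camptothecin. The recombination gene rad54 was at 90.1 and 89.2 CPM with camptothecin and 166 and 166 CPM with MMS, from 45.6 and 49.2 CPM untreated. The RecA family gene rlp1 went the opposite way, at 92.4 and 90.4 CPM with camptothecin and 39.4 and 38.6 CPM with MMS, and the log2 ratio was 1.23 ± 0.05 (SE; edgeR, adjusted p = 3.90e-33). In the checkpoint list 5 of 15 were higher with each agent, 1 at least 2-fold with camptothecin and none with MMS (median 0.07). The replication checkpoint kinase gene cds1 was higher with MMS (log2 ratio -0.77), as was the 14-3-3 gene rad25 (-0.93). The apical kinase gene rad3 was at 183 and 183 CPM with camptothecin, 88.2 and 79.7 CPM with MMS and 113 and 114 CPM untreated. For rad3 the log2 ratio was 1.13 ± 0.04 (SE; edgeR, adjusted p = 5.92e-36). Other annotated features cover 66.3 % of its span, so part of its reads may come from them.

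Of 14 translesion and PCNA modification genes 8 were higher with MMS and 2 with camptothecin, with a median of -0.26. The bypass polymerase gene kpa1 was at 128 and 129.6 CPM with camptothecin and 242 and 235 CPM with MMS, and rev3, the catalytic subunit gene of polymerase zeta, at 49.9 and 51.9 against 90.3 and 84.0 CPM. The gene eso1, which joins another bypass polymerase to a cohesin acetyltransferase, was higher with camptothecin by 0.42. Replication protein genes leaned to camptothecin, 21 of 38 against 8, by small amounts (median 0.12, or 0.018 where library totals alone set the scale). The 1 member past 2-fold was cdc1, the small subunit gene of polymerase delta, at 70.7 and 68.9 CPM with camptothecin and 31.6 and 30.2 CPM with MMS. In nucleotide excision repair 5 of 10 were higher with MMS and 2 with camptothecin, none at least 2-fold (median -0.21). Over all tested features 38.2 % were higher with MMS and 38.7 % with camptothecin. In mismatch repair and end joining 5 of 11 were higher with camptothecin and 3 with MMS, none at least 2-fold (median 0.14). There the exonuclease gene exo1 was at 75.3 and 78.1 CPM with camptothecin and 48.8 and 52.9 CPM with MMS, and the mismatch repair gene pms1 at 178 and 174 against 100.2 and 97.6 CPM.

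General stress effectors leaned to MMS, and genes of the stress kinase pathway were called in both directions, all by less than 2-fold. Of 17 tested stress-induced effector genes 13 were higher with MMS, 5 of them at least 2-fold, and 3 with camptothecin, with a median of -0.53. The metallothionein gene zym1 was at 109 and 107 CPM untreated, 258 and 261 CPM with camptothecin and 776 and 786 CPM with MMS. The pyridoxal reductase gene plr1 was at 1117 and 1127 CPM with camptothecin and 2687 and 2676 CPM with MMS. The 3 higher with camptothecin were pmp3, gst3 (0.80) and the glycerol-3-phosphate dehydrogenase gene gpd1 (0.16). The membrane proteolipid gene pmp3 was at 1230.2 and 1242 CPM with camptothecin and 483 and 473 CPM with MMS, and the log2 ratio was 1.37 ± 0.02 (SE; edgeR, adjusted p = 3.96e-58). Of the 16 genes of the Sty1 kinase pathway 11 were higher with MMS and 3 with camptothecin, none at least 2-fold, with a median of -0.10. The transcription factor gene pcr1 (-0.63) and the kinase gene win1 (-0.58) were higher with MMS. Those higher with camptothecin were the phosphatase genes pyp2 (0.46) and pyp1 (0.31), whose products act on Sty1, and sty1 itself (0.19), whose reads are uncertain because other annotated features cover 82 % of its span. Among 20 chaperone genes 14 were higher with MMS and 5 with camptothecin (median -0.43). The small heat shock gene hsp16 was at 2832 and 2922 CPM with camptothecin and 4175 and 4284 CPM with MMS, and hsp20, of the same family, at 139 and 131 against 398 and 387 CPM. Of 29 proteasome and ubiquitin genes 15 were higher with MMS and 9 with camptothecin, 1 at least 2-fold each way (median -0.23). Over all tested features 38.2 % and 38.7 % were. Those with the largest excess with camptothecin were ubi5 (1.37) and ubi1 (0.81), which encode ubiquitin fused to a ribosomal protein.

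**Figure D3:**
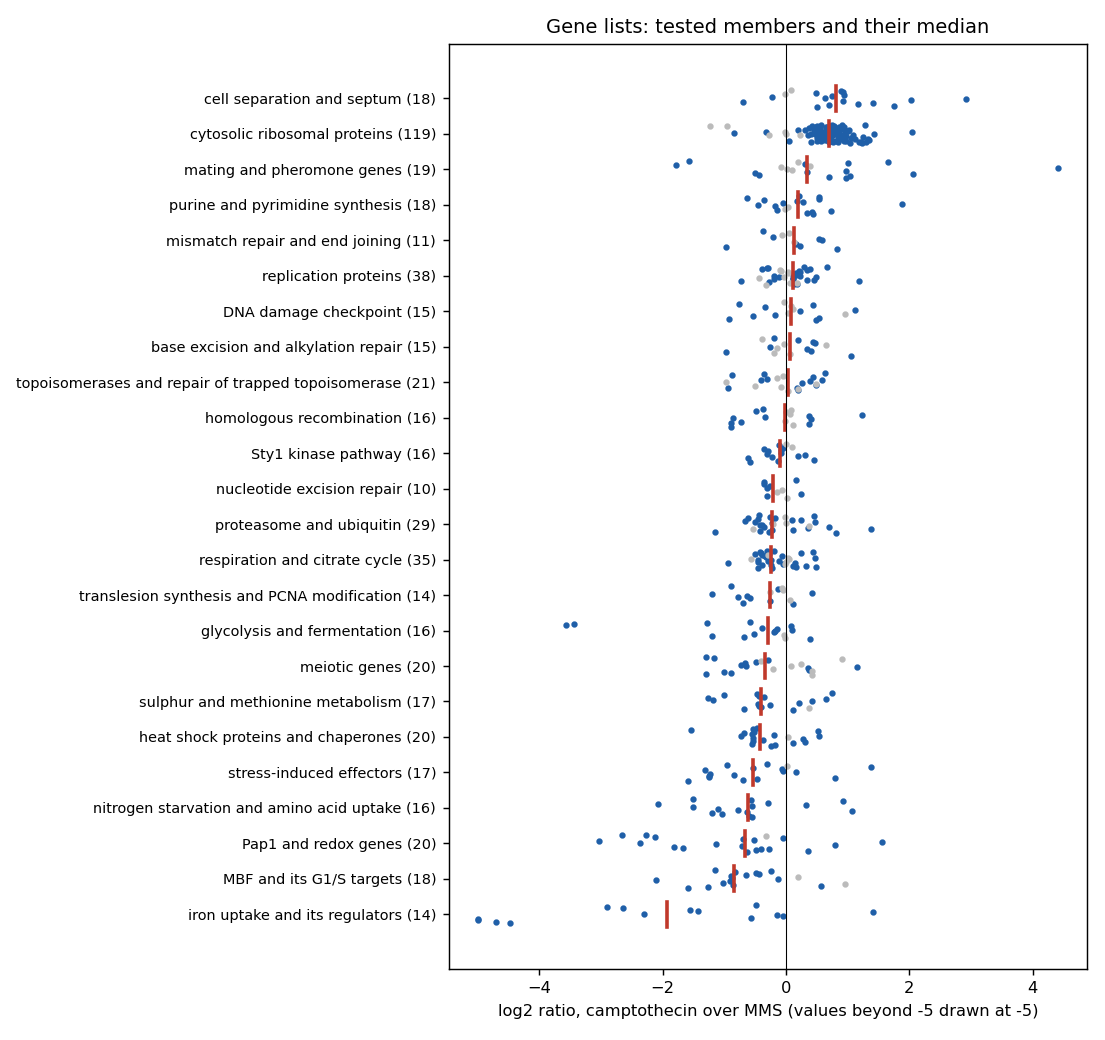
Log2 ratio of camptothecin over MMS (horizontal axis) of the tested members of 24 gene lists, 1 point per gene, blue where called and grey where not, with a red bar at each list's median and the number of tested members in brackets. Iron uptake has the lowest median (-1.94) and cell separation and ribosomal proteins the highest (0.81 and 0.69). Medians of the repair and checkpoint lists lie from -0.26 (translesion synthesis) to 0.14 (mismatch repair and end joining).

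Cytosolic ribosomal protein genes were higher with camptothecin almost throughout. Of 119 tested, 111 were higher with camptothecin, 16 at least 2-fold, and 2 were higher with MMS, with a median of 0.69. Their summed level was 153328 and 154881 CPM in the camptothecin libraries, 91227 and 92952 CPM in the MMS libraries and 157428 and 160012 CPM in the untreated ones. The MMS libraries thus lay below the other 4. Against untreated cells 3 of these genes rose and 112 fell with MMS, where 39.5 % and 40.9 % of all tested features rose and fell. With camptothecin 46 rose and 58 fell, where 35.2 % and 35.9 % of all features rose and fell. The 40S gene rps21 was at 5490.3 and 5572 CPM untreated, 6212 and 6373 CPM with camptothecin and 2299 and 2373 CPM with MMS. For rps21 the log2 ratio was 1.43 ± 0.02 (SE; edgeR, adjusted p = 4.92e-61). With rps21 the members of smallest adjusted p were rps2801 (1.34), rps2401 (1.29) and rpl31 (1.248). Ribosomal proteins are encoded in part by gene pairs, and 12 of the tested genes have uncertain counts through overlap or a near-identical copy. Without these the median was 0.71. Ribosome assembly genes were called in both directions: 17 of 53 were higher with camptothecin and 21 with MMS, with a median of -0.04. Those shares stand beside 38.7 % and 38.2 % of all tested features.

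Cell separation genes were mostly below their untreated level with both agents, and lower with MMS than with camptothecin. These genes encode the glucanases and wall proteins that dissolve the septum between daughter cells, and they are transcribed at the end of each division. Of 18 tested separation and septum genes 14 were higher with camptothecin, 5 at least 2-fold, and 2 with MMS, with a median of 0.81. The gene adg1 was at 200.3 and 206 CPM in untreated cells, 72.0 and 71.7 CPM with camptothecin and 9.39 and 9.54 CPM with MMS. For adg1 the log2 ratio was 2.92 ± 0.06 (SE; edgeR, adjusted p = 2.71e-48). The gene agn1, for the endo-1,3-alpha-glucanase of the septum edge, was at 279.8 and 279 CPM untreated, 134 and 125 CPM with camptothecin and 39.1 and 38.1 CPM with MMS. Further members, chosen after their values were seen, were eng1, for the endo-1,3-beta-glucanase that dissolves the primary septum (126 and 129.9 CPM untreated, 68.2 and 67.6 with camptothecin and 15.9 and 17.4 with MMS), adg2 (log2 ratio 1.42) and adg3 (0.92). In all 5 the groups did not overlap and ran in the order untreated, camptothecin, MMS. Between both agents 4402 of all 4408 called features lay apart too. Of the 18 genes 10 fell and 5 rose with camptothecin against untreated cells, and 15 fell and 2 rose with MMS. In RNA from whole cultures a smaller share of cells at the end of division and less RNA per such cell cannot be told apart.

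The septum glucan synthase genes had another pattern. The gene bgs3 was at 412 and 412 CPM untreated, 602 and 589.6 CPM with camptothecin and 264 and 268 CPM with MMS, so that camptothecin lay above and MMS below the untreated level. The essential synthase gene bgs4 was at 1125 and 1121 CPM with camptothecin, near its untreated 1024 and 1032 CPM, and at 609.8 and 605 CPM with MMS. Mitotic genes were called in both directions, 8 of 16 higher with camptothecin and 5 with MMS, beside 38.7 % and 38.2 % of all tested features. There the cyclin gene cdc13 was at 162 and 167 CPM with camptothecin and 241 and 226 CPM with MMS, and the Aurora kinase gene ark1 at 35.7 and 34.9 against 20.5 and 20.2 CPM.

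Mating and pheromone genes held the largest difference on the camptothecin side among the protein-coding genes that the rule names. The gene mfm2, 1 of the 3 genes that encode the M-factor pheromone precursor, was at 15.5 and 14.9 CPM untreated, 55.9 and 57.4 CPM with camptothecin and 2.80 and 2.51 CPM with MMS. Camptothecin therefore lay above and MMS below the untreated level, and the log2 ratio was 4.42 ± 0.11 (SE; edgeR, adjusted p = 8.60e-43). The list as a whole was mixed: of 19 tested genes 10 were higher with camptothecin, 5 at least 2-fold, and 4 with MMS, with a median of 0.34. The gene ste11, for the factor that starts sexual development, was at 48.9 and 46.8 CPM untreated, 90.5 and 91.1 CPM with camptothecin and 29.4 and 28.2 CPM with MMS. For ste11 the log2 ratio was 1.66 ± 0.06 (SE; edgeR, adjusted p = 7.11e-36). The gene ste4, for an adaptor of the pheromone MAP kinase cascade, was at 85.5 and 79.5 CPM with camptothecin and 21.7 and 18.3 CPM with MMS, and the log2 ratio was 2.05 ± 0.06 (SE; edgeR, adjusted p = 1.32e-37).

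A list of the pheromone signalling chain was drawn up after these values were seen. It repeats ste4, ste6, ste11, mam2 and map3 of the mating list, so the counts of both lists overlap. In the signalling list 10 of 12 tested genes were higher with camptothecin, 6 at least 2-fold, and 1 with MMS, with a median of 0.89. This list has 4 tested genes with uncertain counts, and without them its median was 0.88. It holds the G protein alpha subunit gene gpa1, at 44.8 and 47.1 CPM untreated, 120.2 and 123 CPM with camptothecin and 29.1 and 31.4 CPM with MMS. The P-factor receptor gene mam2 was at 135 and 138 CPM with camptothecin and 67.3 and 65.7 CPM with MMS. The MAP kinase kinase gene byr1 had a log2 ratio of 1.70 and the MAP kinase gene spk1 one of 1.01, both with uncertain counts through overlapping features. The kinase gene byr2 of the same cascade was higher with MMS, by a log2 ratio of -0.52. The next 4 genes were likewise chosen after their values were seen. The P-factor gene map2 was at 4.06 and 4.40 CPM with camptothecin and 12.7 and 12.5 CPM with MMS, and mfm1 was at 2.15 and 1.61 against 1.58 and 1.34 CPM, a difference that was not called (adjusted p = 0.21, edgeR). The meiotic inducer mei3 was higher with MMS, but with 21 and 19 reads against 49 and 87. The meiotic switch gene mei2 was at 19.2 and 18.5 against 17.8 and 17.7 CPM (adjusted p = 0.38, edgeR), above its untreated 7.89 and 7.41 CPM with both agents. Of 20 tested meiotic genes 10 were higher with MMS and 3 with camptothecin (median -0.35). The exception of largest size was rec10, for a component of the meiotic chromosome axis, at 19.6 and 17.3 CPM untreated, 96.4 and 102 CPM with camptothecin and 47.0 and 42.0 CPM with MMS.

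**Figure D4:**
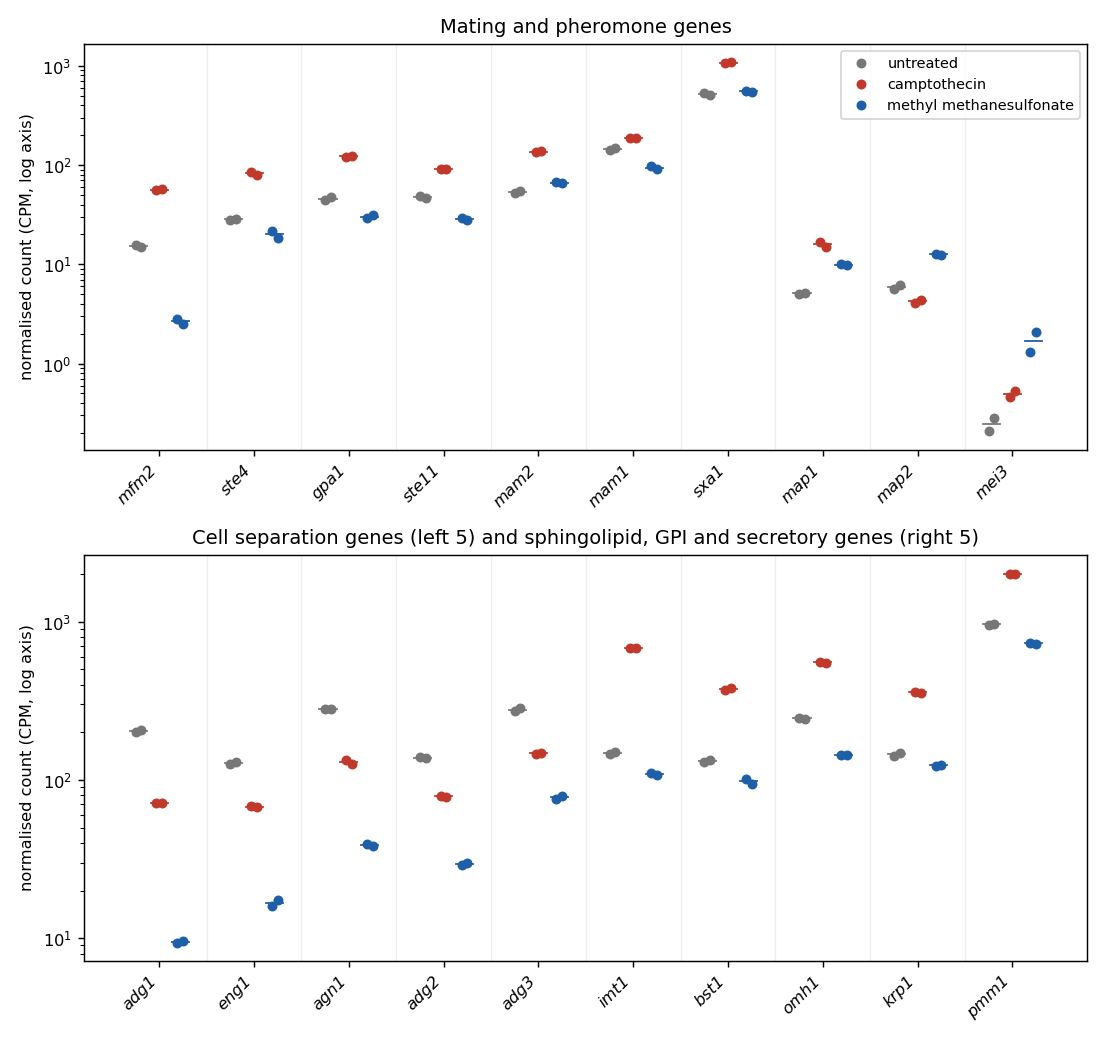
Levels of 10 mating genes (top) and of 5 cell separation and 5 sphingolipid, GPI and secretory genes (bottom) in CPM on a log axis, 1 point per library and a bar at the mean of 2 libraries. The separation genes run in the order untreated, camptothecin, MMS, while the lipid and secretory genes are highest with camptothecin and lie at or below the untreated level with MMS.

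Genes of the cell surface and of its lipids were also among those with the largest ratios at the camptothecin end. The gene imt1, for an inositol phosphorylceramide mannosyltransferase of sphingolipid synthesis, was at 145 and 149.8 CPM untreated, 685 and 678 CPM with camptothecin and 111 and 108 CPM with MMS. For imt1 the log2 ratio was 2.64 ± 0.03 (SE; edgeR, adjusted p = 4.27e-65). The SUR7 family gene pun1 was at 295 and 277 CPM with camptothecin and 54.4 and 50.3 CPM with MMS, and the squalene monooxygenase gene erg1, an early step of sterol synthesis, at 317 and 315 against 93.2 and 91.9 CPM. Over 23 tested sterol genes 11 were higher with camptothecin and 9 with MMS, beside 38.7 % and 38.2 % of all tested features. A list of sphingolipid, GPI anchor and mannosylation genes drawn up after these values were seen had 22 of 30 members higher with camptothecin, 7 at least 2-fold, and 4 with MMS. It holds bst1, for a GPI inositol deacylase (372 and 379 against 102 and 94.5 CPM), the mannosyltransferase gene omh1 (558 and 549.6 against 143 and 143 CPM), pmm1 for phosphomannomutase (1996 and 2015 against 739 and 721 CPM) and krp1, for the kexin-type protease of the secretory pathway (362 and 356 against 123 and 125 CPM). In these 4 the camptothecin libraries lay above the untreated ones and the MMS libraries below them. The GPI synthesis gene gpi3 differed the other way, by -1.43.

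The calcineurin-responsive factor gene prz1 and the neuronal calcium sensor gene ncs1 were in the same class, and both were chosen after their values were seen. The prz1 gene was at 117 and 119.5 CPM untreated, 241 and 249.7 CPM with camptothecin and 82.5 and 88.0 CPM with MMS. The ncs1 gene was at 138 and 139.5 CPM untreated, 363 and 365 CPM with camptothecin and 93.9 and 92.7 CPM with MMS. A list of 14 calcium genes drawn up afterwards had 8 higher with camptothecin and 5 with MMS, with a median of 0.11, or 0.012 where library totals alone set the scale, and the calcineurin subunit genes ppb1 and cnb1 had log2 ratios of 0.17 and -0.09.

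The copper transporter genes were higher with camptothecin, although 7 of the 12 genes of the copper and zinc list were higher with MMS and 3 with camptothecin. The genes ctr4 and ctr5 encode the 2 subunits of the plasma membrane copper transporter. The ctr5 gene was at 187 and 183 CPM untreated, 286 and 284 CPM with camptothecin and 90.2 and 90.0 CPM with MMS, and ctr4 at 142 and 151 CPM untreated, 294 and 299.9 CPM with camptothecin and 124 and 123 CPM with MMS. For ctr5 the log2 ratio was 1.66 ± 0.03 (SE; edgeR, adjusted p = 1.03e-50). The O-methyltransferase gene cmt2 reached the highest level of any gene at the camptothecin end named by the rule. It was at 109 and 108 CPM untreated, 2725 and 2713 CPM with camptothecin and 553 and 539.6 CPM with MMS, so it rose with both. For cmt2 the log2 ratio was 2.32 ± 0.02 (SE; edgeR, adjusted p = 9.99e-71). The mean level of cmt2 with hydroxyurea was 121 CPM and with phleomycin 193 CPM. The remaining genes the rule names at this end were the4, for an acyl-CoA thioesterase (538 and 551 against 107 and 107 CPM), srb11, for the cyclin of the Mediator kinase module (176 and 178 against 41.0 and 41.6 CPM), mde6 (107 and 103 against 23.7 and 23.7 CPM) and mug133 (68.7 and 69.6 against 9.68 and 9.09 CPM).

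Protein-coding genes without a symbol, which the naming rule leaves out, held larger differences still at the camptothecin end. The following were chosen after their values were seen. SPBPB2B2.18 and SPAC977.18 encode uncharacterised proteins and have near-identical copies, so their reads may be shared with other genes. SPBPB2B2.18 was at 1.55 and 1.40 CPM untreated, 390.4 and 378 CPM with camptothecin and 8.65 and 7.46 CPM with MMS, and the log2 ratio was 5.58 ± 0.05 (SE; edgeR, adjusted p = 8.33e-67). SPAC977.18 was at 0.440 and 1.51 CPM untreated, 114 and 111 CPM with camptothecin and 3.85 and 3.61 CPM with MMS. The hydroxyacid dehydrogenase gene SPAC186.07c, which has no such copy, was at 0.932 and 0.699 CPM untreated, 84.6 and 82.0 CPM with camptothecin and 3.40 and 2.54 CPM with MMS, and the log2 ratio was 4.82 ± 0.11 (SE; edgeR, adjusted p = 7.07e-46). The uncharacterised gene SPCC737.04 was at 76.6 and 76.0 CPM untreated, 603 and 605 CPM with camptothecin and 101 and 98.3 CPM with MMS. All 4 were higher with both agents than in untreated cells, and far more so with camptothecin. On the MMS side the flavin oxidoreductase gene SPBC23G7.10c was at 74.5 and 75.4 CPM with camptothecin and 482 and 494 CPM with MMS, and the uncharacterised gene SPAC9G1.14 at 4.53 and 3.48 against 34.8 and 34.5 CPM.

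Hexose and respiration genes showed smaller differences. Of 7 tested hexose transporter genes 4 were higher with camptothecin and 2 with MMS, and all 7 fell with MMS against untreated cells. The 1 member past 2-fold was ght3, higher with MMS by a log2 ratio of -1.40. The main glucose transporter gene ght5 was at 1083 and 1066 CPM untreated, 713 and 710.2 CPM with camptothecin and 544 and 536 CPM with MMS. The invertase gene inv1 was at 751 and 771 CPM untreated, 325 and 334 CPM with camptothecin and 172 and 174 CPM with MMS. Of 35 respiration genes 21 were higher with MMS and 8 with camptothecin, none at least 2-fold (median -0.25). Of 18 tested purine and pyrimidine genes 10 were higher with camptothecin and 6 with MMS, with dea2, for adenine deaminase, at 269 and 257 CPM against 73.1 and 70.0 CPM with MMS.

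The remaining lists were called in both directions or held few tested members. Over all tested features 38.7 % were higher with camptothecin and 38.2 % with MMS. In the amino acid synthesis list 16 of 39 genes were higher with camptothecin, 1 at least 2-fold, and 19 with MMS, 2 at least 2-fold (median -0.17). In glycolysis 11 of 16 were higher with MMS, 4 at least 2-fold, and 3 with camptothecin, none at least 2-fold (median -0.29). Of all tested features 8.6 % were at least 2-fold higher with MMS and 4.85 % with camptothecin. The phosphoglycerate mutase gene gpm1 was at 5915 and 6033 CPM with camptothecin and 9476 and 9715 CPM with MMS. Of 13 glucose-repressed genes 8 were higher with MMS and 4 with camptothecin, among them the maltase gene mal1, at 176 and 184 CPM with camptothecin and 76.4 and 73.9 CPM with MMS. Of 11 tested phosphate genes 6 were higher with MMS, 3 at least 2-fold, and 4 with camptothecin, none at least 2-fold (median -0.09). Of 12 flocculin genes 5 were higher with camptothecin, none at least 2-fold, and 4 with MMS, 1 at least 2-fold. Histone genes gave 4 of 8 higher with MMS and 2 with camptothecin, telomere genes 6 of 12 and 3, and transcripts of the mitochondrial genome 5 of 10 and 4. Of 3 tested features of the Tf2 retrotransposon 2 were higher with MMS and none with camptothecin (edgeR), and all 3 rose with both agents against untreated cells, with uncertain counts because these elements are near-identical copies.

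Non-coding RNAs that differed were more often higher with MMS than with camptothecin. Of 1016 tested non-coding features 448 were higher with MMS and 181 with camptothecin, and at least 2-fold differences were 245 and 74. Their log2 ratios ran from -6.32 to 6.46, and the features at both extremes fell outside the naming rule. Their median log2 ratio was -0.38, against 0.04 for 4718 protein-coding features. By mean level over the groups, it was -0.46 for the 513 non-coding features from 1 to 10 CPM and -0.10 for the 257 from 10 to 100 CPM. Protein-coding genes from 10 to 100 CPM gave 79 at least 2-fold higher with camptothecin and 85 with MMS. From 100 to 1000 CPM they gave 66 and 71, and from 1000 CPM up 14 and 5. With at least 10 CPM required in both libraries of a group the non-coding median was -0.14, and with quantile normalization -0.10. The 216 non-coding features that no other annotated feature overlaps, and that have no copy, had a median of -0.41. The share of all counts in non-coding features was higher with both agents than without. It was 8.60 and 8.68 % with camptothecin, 8.49 and 8.53 % with MMS and 6.18 and 6.23 % in untreated libraries. In the 598 without a large overlap or a copy, the rise in summed level was much smaller with MMS. They summed to 57555.5 and 58603.2 CPM with camptothecin, 38084.5 and 38722.4 CPM with MMS and 36104.6 and 36758.6 CPM untreated. Feature by feature the order was the reverse, since abundant RNAs weigh most in a sum. The median log2 change of these 598 from untreated was 0.68 with MMS (344 rose and 90 fell). With camptothecin it was 0.28 (244 rose and 84 fell). Of all tested features 39.5 % rose and 40.9 % fell with MMS, and 35.2 % and 35.9 % with camptothecin.

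The 4 non-coding features named at the MMS end each lie beside or over a gene that was also higher with MMS. Of all tested features 38.2 % were called so. That is a share of single features, whereas each of these 4 has more than 1 neighbouring or overlapped gene. Whether such neighbours are more frequent here was not tested. Other neighbours were higher with camptothecin: isp3 beside SPNCRNA.605 (log2 ratio 0.24) and sur2 beside SPNCRNA.1617 (0.59). SPNCRNA.605, which lies next to str3 on the opposite strand and is covered over 74.4 % by other features, was at 3.17 and 3.59 CPM with camptothecin and 28.6 and 30.0 CPM with MMS. SPNCRNA.1213, next to osr1, was at 29.0 and 28.9 against 170.2 and 171 CPM. SPNCRNA.1258 overlaps tpx1 on the same strand and was at 3.66 and 5.12 against 36.7 and 37.04 CPM. The last of them, SPNCRNA.1617, was at 1.86 and 2.05 CPM untreated, 0.911 and 0.863 CPM with camptothecin and 13.5 and 12.5 CPM with MMS. It overlaps an uncharacterised gene and its neighbour is a transmembrane transporter gene whose log2 ratio was -1.38. The strand setting of the counting is not given in the sources used here, so reads of a gene and of a transcript that overlaps it cannot be told apart.

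On the camptothecin side SPNCRNA.175 was at 0.802 and 1.002 CPM untreated, 23.7 and 20.2 CPM with camptothecin and 1.40 and 1.34 CPM with MMS, and the log2 ratio was 4.002 ± 0.19 (SE; edgeR, adjusted p = 9.84e-29). It lies between the wall protein gene ecm33 (log2 ratio 0.78) and the ubiquitin ligase gene rbx1 (1.02). SPNCRNA.446 was at 27.1 and 28.6 CPM with camptothecin and 2.19 and 2.03 CPM with MMS, and lies between the acid phosphatase gene pho1, which was higher with MMS (-1.50), and fub2, which was higher with camptothecin (2.53). The transcripts prl14 (16.5 and 14.6 against 2.08 and 2.39 CPM) and prl101 (11.9 and 11.6 against 1.64 and 0.717 CPM) had fewer reads, and both libraries of each agent still lay apart. Of 45 tested members of the list of named long non-coding RNAs, to which they belong, 20 were higher with camptothecin and 16 with MMS. Over all tested features the shares were 38.7 % and 38.2 %.

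The long non-coding RNA rse1, annotated as a repressor of ste11 and chosen after its values were seen, lies between ste11 and the4 on the chromosome. It was at 43.1 and 43.0 CPM untreated, 89.2 and 90.6 CPM with camptothecin and 31.5 and 31.2 CPM with MMS. It overlaps the heme lyase gene cyc3 on the opposite strand over 0.7 % of its span, and cyc3 had a mean of 164 CPM with camptothecin, 105 CPM with MMS and 116 CPM in untreated cells. All 3 of ste11, rse1 and the4 thus were above their untreated level with camptothecin and below it with MMS. The signal recognition particle RNA gene srp7, chosen likewise, was at 3009 and 3137 CPM untreated, 6469.8 and 6812 CPM with camptothecin and 3076 and 3263 CPM with MMS. The telomerase RNA gene ter1 was at 217 and 216 CPM untreated, 456 and 443 CPM with camptothecin and 371 and 374 CPM with MMS, so both agents raised it and their difference was small (0.27). The meiotic RNA gene sme2 was at 22.4 and 22.7 CPM with camptothecin and 34.8 and 32.0 CPM with MMS.

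Centromeric transcripts were low with MMS and not with camptothecin. The group was drawn up after its values were seen, from the annotation's product names, and holds 13 tested centromeric non-coding RNAs. Of these 10 were higher with camptothecin, all at least 2-fold, and none with MMS (edgeR, adjusted p), with a median log2 ratio of 1.99. Against untreated cells 10 of 13 fell with MMS and none rose, whereas with camptothecin 2 fell and 2 rose. SPNCRNA.359 was at 16.9 and 17.2 CPM untreated, 17.3 and 16.6 CPM with camptothecin and 1.93 and 2.01 CPM with MMS, from 73 and 84 reads in the MMS libraries. SPNCRNA.372 was at 9.29 and 8.25 CPM untreated, 12.9 and 13.8 CPM with camptothecin and 1.48 and 1.24 CPM with MMS. These repeats have near-identical copies elsewhere in the genome, and all 13 count as uncertain, because reads may have been split among them. With hydroxyurea the mean level of SPNCRNA.359 was 2.38 CPM and with phleomycin 9.505 CPM. The genes of heterochromatin proteins were called in both directions (7 of 20 higher with camptothecin and 9 with MMS, none at least 2-fold, median -0.06). The gene epe1, for an anti-silencing factor, was at 133 and 125 CPM with camptothecin and 67.2 and 68.3 CPM with MMS.

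**Figure D5:**
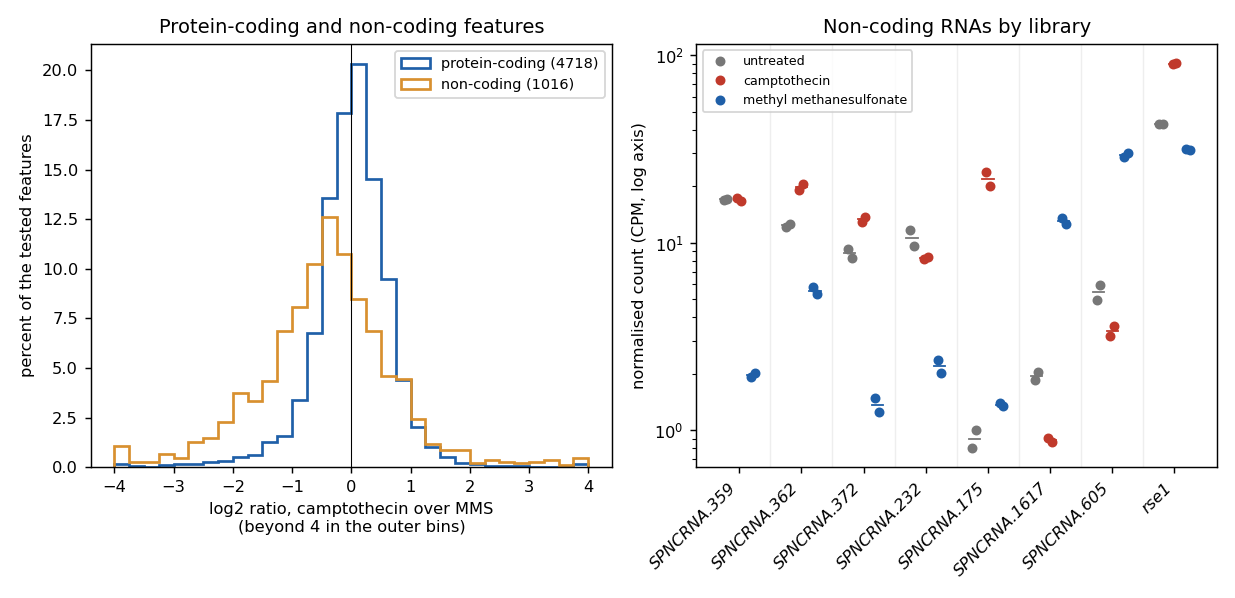
Left, distribution of the log2 ratio of camptothecin over MMS for protein-coding and non-coding features, as percent of the features of each kind in bins of 0.25. Right, levels of 8 non-coding RNAs in CPM on a log axis, 1 point per library, where the MMS libraries of the 4 centromeric RNAs (left 4) lie below both other groups.

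Large differences were more frequent near chromosome ends. Of 128 tested protein-coding genes among the outermost 40 at each end of chromosomes I and II, 23.4 % were called and at least 2-fold higher with camptothecin and 21.1 % with MMS. Among the other 4590 protein-coding genes the shares were 3.79 and 4.81 %. By chromosome, protein-coding genes on chromosome III had a median of -0.08, against 0.08 on chromosome I and 0.03 on chromosome II. These sets were drawn up after the values were seen, and gene families near the ends hold many similar copies.

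Set against untreated cells, the 2-fold differences arose in different ways. Both agents are compared here with the same 2 untreated libraries, so the directions are not independent of each other. Of the 493 features at least 2-fold higher with MMS, 212 rose with MMS without a call for camptothecin, 152 rose with both and 88 rose with MMS and fell with camptothecin. Of the 278 at least 2-fold higher with camptothecin, 111 rose with camptothecin and fell with MMS, 51 rose with both, 41 fell with MMS without a call for camptothecin and 38 fell with both. Features that moved in opposite directions thus made up a larger part on the camptothecin side. Over both sides 199 features had opposite calls.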

How the data were processed

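The authors deposited raw counts of reads per gene, 1 column per library, without scaling, as their whole values show. HISAT2 and StringTie were used per the submitters' processing notes. No version or role is given for either, nor a build, an annotation, a counting program or its handling of strand. Reads carried no stated molecular identifiers, so molecules may have been read more than once, and the count depth (37301356 to 48598533 per library) limits counting error only.

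All 5 groups of 2 libraries entered 1 model (edgeR 4.0.16 in R 4.3.3, quasi-likelihood test, TMM scaling, filterByExpr). The contrast was camptothecin minus MMS, and each agent was also set against the untreated libraries. P-values were Benjamini-Hochberg adjusted over the 5734 tested features and called at 0.05. The SE is the log2 ratio's size over the square root of F. CPM values use TMM-scaled library sizes. The script was tested on simulated data.

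Symbols, neighbours and overlaps came from assembly ASM294v3, which the authors do not name: 6540 IDs matched by locus tag, 12 by synonym and 109 not at all. No coordinates or sequences are printed. Counts are called uncertain for 986 tested features, covered over 75 % of their span by others or with a near-identical copy (95 % identity over 50 % of the length).

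Named features were the 10 protein-coding and 4 non-coding ones with the largest ratios at each end (called, libraries apart, 10 CPM or more in the higher group, not uncertain), up to 4 members per list with the smallest adjusted p, and a set of 17 damage, stress and metal genes. A further 56, and 7 other list members given by their ratio alone, were added after their values were seen. The members and lists were chosen with earlier results of these data known, and 3 lists were added later. Replicate numbers did not pair libraries: the correlation of replicate differences between both agents was -0.0453. Replicates differed beyond counting error in every group (chi-square per feature 3.34 to 3.71). That spread was small, with a coefficient of variation of 2.2 % from the common dispersion of the fit. Alternatives were other scalings (limma 3.58.1 for quantile), filters and tools (DESeq2 1.42.0), a replicate block, and leaving out each library.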

Additional observations from a re-analysis of the deposited data

Results flagged for a closer look

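Some named features moved in opposite directions with both agents against untreated cells, at least 2-fold each way, and the direct contrast of camptothecin with MMS tests that difference (edgeR quasi-likelihood test). For the siderophore transporter gene str3 the log2 ratio of camptothecin over MMS was -8.55, for the ferroxidase gene fio1 it was -4.71, for the pheromone gene mfm2 4.42 and for the non-coding RNA SPNCRNA.1617 -3.87. Both libraries of each agent lay on the same side of both untreated libraries in all 4. SPNCRNA.1617 rests on 42 and 31 reads in the camptothecin libraries and 72 and 88 in the untreated ones.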

How the results depend on the processing

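The counts of features higher with camptothecin and with MMS, at least 2-fold or not, kept within 1.5 times of the reported ones under every alternative run but 1. With at least 10 CPM required in both libraries of a group, fewer features entered the test, and 175 were at least 2-fold higher with camptothecin and 230 with MMS. Leaving out 1 library at a time gave 2075 to 2115 features higher with camptothecin and 2019 to 2048 features higher with MMS. It gave 269 to 278 features 2-fold or more higher with camptothecin and 459 to 472 features 2-fold or more higher with MMS, where the remaining library of an agent is assumed to vary like the other groups. The replicate block gave 2187 features higher with camptothecin and 2136 features higher with MMS, and changed no call of a named gene. The histone H3 gene hht1 reversed, to a log2 ratio of -0.0204 with library totals alone and -0.0124 with quantile normalization, neither called. Library totals alone moved the median of all features from -0.005 to -0.10, and list medians with it. The promoter and protein descriptions that had been planned were not run. Depth limits features with few reads, and 230 non-coding and 111 protein-coding tested features had a mean under 1 CPM.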
